A study of Mus musculus with 6 samples.

Results

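A set of 10 genes linked to contraction and to the coactivator YAP was followed in CD8 T cells taken from mouse tumours: the contractile genes Acta2, Tagln, Cnn1 and Myl9, the matricellular genes Ccn1 and Ccn2, Ankrd1, the angiomotin genes Amotl1 and Amotl2, and Yap1. They were picked by symbol, 10 of 40879 genes in the table, with the Biotin+ against Biotin- difference already known. Their differences between the groups are therefore given as a description, without a test. The cells were tumour-infiltrating lymphocytes of C57BL/6N mice, sorted by FACS from tumours of 12 days made by MC38-hPD-L1, a derivative of a mouse colon carcinoma line. Photocatalytic proximity labelling, in which a light-driven catalyst puts biotin on what lies near it, split them. The Biotin+ libraries (3, replicates 1 to 3) are from cells that the labels call tumour-neighbouring, and the Biotin- libraries (3, replicates 1 to 3) are from cells called tumour-distal. All 6 share strain, tumour line and day, and the labels do not say whether replicates came from separate mice, so the spread between them may be partly technical. Libraries held 16440614 to 19640693 counts in Biotin+ and 16423106 to 19035864 counts in Biotin-.

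YAP and its relative TAZ carry no DNA-binding domain of their own. When the Hippo kinases MST and LATS are active, they phosphorylate YAP and hold it in the cytoplasm. Otherwise it enters the nucleus and binds TEAD factors, which switch on Ccn1, Ccn2, Ankrd1 and Amotl2, and angiomotins bind YAP and restrain it. Smooth muscle actin, transgelin, calponin and the regulatory light chain of Myl9 belong to the contractile apparatus of smooth muscle, pericytes and myofibroblasts, and their genes are driven mainly by serum response factor (SRF), which binds CArG boxes.

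Promoter sequences are shown to set the letters that TEAD and SRF are known to bind beside the members of each role. RefSeq (GRCm38.p6) gave a promoter for 8 of the 10 genes, all but Tagln and Ccn2, and the 250 bases before the transcription start were searched. The TEAD core GGAATG, or CATTCC on the other strand, was present in 5 of the 8 promoters (Acta2, Ccn1, Ankrd1, Amotl2 and Yap1), against 12.6% of 32536 promoters of the same length. A full CArG box was present in 1 of the 8, Myl9, against 1.48% of promoters. A CArG-like box, with a single C or G in its A/T core, was present in 3 (Acta2, Myl9 and Amotl1), against 7.23%. This looser form was added after the sequences had been seen. The CArG patterns read alike on both strands, and in these 8 promoters no match of one motif overlapped another. A match describes the letters only, and nothing here measured binding. The windows below run 5′ to 3′ on the gene's strand, with capitals for TEAD cores, CArG boxes and CArG-like boxes. The window of Ccn1 is chr3:145649986-145650235 (minus strand), Ankrd1 at chr19:36119845-36120094 (minus strand), Amotl2 at chr9:102717554-102717803 (plus strand), Acta2 at chr19:34255374-34255623 (minus strand) and Myl9 at chr2:156775214-156775463 (plus strand).
Ccn1: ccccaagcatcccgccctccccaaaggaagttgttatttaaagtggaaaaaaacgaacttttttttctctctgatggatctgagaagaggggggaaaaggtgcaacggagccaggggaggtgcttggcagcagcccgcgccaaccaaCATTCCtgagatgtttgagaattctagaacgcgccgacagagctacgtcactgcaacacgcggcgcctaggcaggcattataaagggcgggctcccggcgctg
Ankrd1: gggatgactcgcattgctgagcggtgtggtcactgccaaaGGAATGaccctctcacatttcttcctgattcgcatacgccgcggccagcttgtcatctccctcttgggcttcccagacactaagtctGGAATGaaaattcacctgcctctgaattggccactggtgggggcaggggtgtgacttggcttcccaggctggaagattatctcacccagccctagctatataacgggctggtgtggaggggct
Amotl2: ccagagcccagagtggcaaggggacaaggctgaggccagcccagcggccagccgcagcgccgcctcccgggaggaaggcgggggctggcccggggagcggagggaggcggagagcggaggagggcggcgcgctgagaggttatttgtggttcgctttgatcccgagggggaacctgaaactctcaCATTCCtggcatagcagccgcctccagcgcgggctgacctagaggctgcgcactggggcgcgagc
Acta2: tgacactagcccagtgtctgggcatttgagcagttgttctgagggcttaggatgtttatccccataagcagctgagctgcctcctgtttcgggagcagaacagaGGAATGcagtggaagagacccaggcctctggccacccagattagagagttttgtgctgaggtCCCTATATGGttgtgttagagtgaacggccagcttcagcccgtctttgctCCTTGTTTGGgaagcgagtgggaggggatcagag
Myl9: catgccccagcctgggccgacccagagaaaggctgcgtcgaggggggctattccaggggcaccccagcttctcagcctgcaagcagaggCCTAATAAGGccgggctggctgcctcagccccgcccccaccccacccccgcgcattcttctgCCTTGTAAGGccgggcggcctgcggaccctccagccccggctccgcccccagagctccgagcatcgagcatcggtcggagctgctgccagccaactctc
The TEAD core of Ccn1 began 103 bases before the start and that of Amotl2 65 bases before it. Ankrd1 had 2 such cores, at 210 and 123 bases. Acta2 had a TEAD core at 146 bases and CArG-like boxes at 84 and 34 bases, and Myl9 had its CArG box at 161 bases and a CArG-like box at 99 bases.

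The 10 genes were far apart in level, and the contractile genes that lead the set's name were close to absent. Levels are given as counts scaled to a common library total (CPM) after TMM scaling, which corrects for library composition, and levels of different genes are set against each other only per kilobase (kb) of merged exons. Per kb, Ccn1 stood at 55.3 ± 29.3 CPM in Biotin+, against 262.5 ± 112 CPM in Biotin- (SD, n = 3 each). Cd8a, the coreceptor that defines the sorted cells, stood at 337 ± 17.5 CPM per kb in Biotin+, against 179 ± 52.0 CPM per kb in Biotin- (SD, n = 3 each). In Biotin- the level of Ccn1 per kb was thus of the order of that of Cd8a. Amotl2 followed at 2.31 ± 1.81 CPM per kb in Biotin+, against 10.3 ± 5.92 CPM per kb in Biotin-, and Ankrd1 at 1.80 ± 1.23 CPM per kb in Biotin+, with 9.53 ± 5.68 in Biotin- (SD, n = 3 each). These neighbours did not differ beyond their spread in either group. Yap1 (0.894 ± 0.277 CPM per kb in Biotin+, 2.50 ± 0.623 in Biotin-) and Amotl1 (0.386 ± 0.184 in Biotin+, 2.48 ± 0.579 in Biotin-) came next, with near-equal levels per kb in Biotin- (SD, n = 3 each). The libraries of Ankrd1 and Yap1 overlapped per kb in Biotin+ and not in Biotin-. Ccn2 stood at 0.210 ± 0.222 CPM per kb in Biotin+, against 1.96 ± 1.06 in Biotin-, and Acta2 at 0.136 ± 0.143 in Biotin+, against 1.36 ± 0.967 in Biotin- (SD, n = 3 each), which again did not differ beyond their spread. Ccn2 also overlapped with Amotl1 in both groups. The means of Myl9, Cnn1 and Tagln lay below all of these, at no more than 0.235 CPM per kb in either group. In Biotin+ the libraries of Myl9 overlapped with those of Acta2, Ccn2 and Amotl1, those of Tagln with Acta2 and Ccn2, and those of Cnn1 with Acta2. In Biotin- the libraries of Myl9 overlapped with those of Acta2. The values of Myl9, Tagln and Cnn1 rest on a few reads each.

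**Figure D1:**
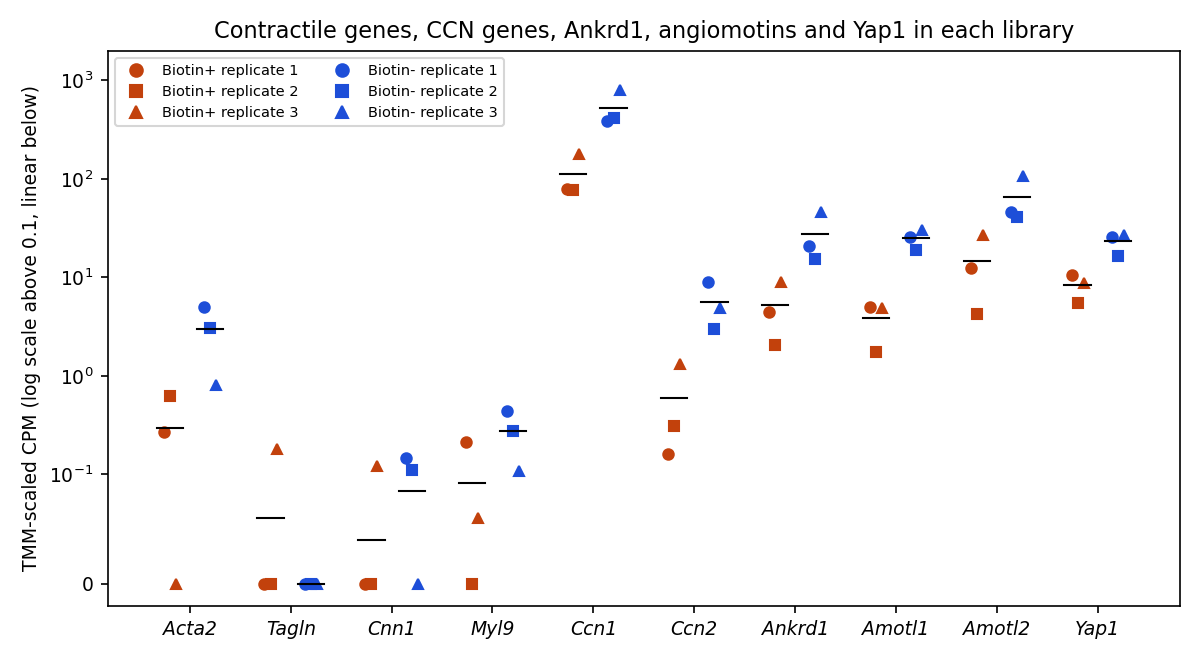
TMM-scaled CPM (y axis, log scale above 0.1 and linear below) of the 10 genes (x axis) in each library, with Biotin+ left of Biotin- and a line at each group's mean. Tagln, Cnn1 and Myl9 sit near 0 in both groups, while Ccn1 reached 179.9 CPM in Biotin+, against 789.7 CPM in Biotin-.

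Yap1, the coactivator itself, had 10.6, 5.49 and 8.77 CPM in Biotin+ replicates 1 to 3, against 26.0, 16.5 and 27.0 CPM in Biotin- replicates 1 to 3. The groups did not overlap, and Biotin+ was 2.80-fold lower (log2 ratio, the fitted log2 fold change of Biotin+ over Biotin-, -1.48 ± 0.32 SE). Of the 7 genes of the set that could be tested for a difference, Yap1 had the smallest log2 ratio in size.

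Ccn1 and Ccn2 encode secreted proteins that bind integrins and matrix and are standard readouts of YAP activity, and Ccn1 is also an immediate early gene. Ccn1 had 78.4, 76.6 and 179.9 CPM in Biotin+, against 388, 413 and 789.7 CPM in Biotin-. Every Biotin+ library was below every Biotin- library, by 4.75-fold in the fit (log2 ratio -2.25 ± 0.39 SE). Ccn1 alone made up 70.3% to 84.1% of the reads of the 10 genes in Biotin+ and 74.4% to 80.8% in Biotin-. Ccn2 had 0.162, 0.312 and 1.33 CPM in Biotin+, which rest on 3, 5 and 22 reads, against 8.94, 3.01 and 4.86 CPM in Biotin-, from 184, 55 and 90 reads. The groups were apart (log2 ratio -3.22 ± 0.75 SE), with Biotin+ replicate 3 nearest to the Biotin- libraries, and without that library the log2 ratio was -4.54. The 2 CCN genes differed widely from each other: per read of Ccn2 there were 485, 245 and 135 reads of Ccn1 in Biotin+, against 43.4, 137 and 162.5 in Biotin-, with ranges that overlapped. In the GENCODE M21 annotation 23.2% of the Ccn2 exon bases lie opposite Gm15270, and the strand setting of the counting is not given, so the Ccn2 values are uncertain to that extent.

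Ankrd1 encodes a stretch-induced ankyrin repeat protein of muscle and a direct target of YAP and TEAD. It had 4.47, 2.06 and 9.07 CPM in Biotin+, against 21.0, 15.3 and 46.2 CPM in Biotin-. No Biotin+ library reached the lowest Biotin- library (log2 ratio -2.40 ± 0.54 SE, 5.28-fold lower). Leaving out Biotin- replicate 3 gave -1.81 and leaving out Biotin+ replicate 3 gave -3.06.

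The angiomotin relatives Amotl1 and Amotl2 encode scaffold proteins of cell junctions that bind YAP, and Amotl2 is itself induced by YAP. Amotl2 had 12.5, 4.25 and 26.8 CPM in Biotin+, against 45.9, 40.9 and 107.7 CPM in Biotin-. Amotl1 had 5.01, 1.75 and 4.90 CPM in Biotin+, against 25.8, 18.8 and 30.3 CPM in Biotin-. Neither gene overlapped between the groups, and the log2 ratios were -2.16 ± 0.59 (SE) for Amotl2 and -2.68 ± 0.40 (SE) for Amotl1. For Amotl2 the value moved to -1.58 without Biotin- replicate 3 and to -2.94 without Biotin+ replicate 3. Amotl2 exceeded Amotl1 in reads in all 6 libraries, by 2.43 to 5.47 times in Biotin+ and by 1.78 to 3.55 times in Biotin-, on a shorter transcript (6289 against 10064 merged exon bases).

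Acta2, which encodes smooth muscle actin and is the usual marker of myofibroblasts, was the only contractile gene of the set with more than 9 reads in any library. It had 5, 10 and 0 reads in Biotin+ (0.269, 0.624 and 0 CPM), against 104, 56 and 15 reads in Biotin- (5.05, 3.07 and 0.810 CPM). The groups did not overlap (log2 ratio -3.30 ± 1.003 SE), but Biotin- replicate 3 lay close to Biotin+ replicate 2, and without that Biotin+ library the value was -4.37. Leaving out Biotin- replicate 1 gave -2.68. A count of 0 in Biotin+ replicate 3 allows up to 3 reads, or 0.181 CPM. This floor covers counting error only, since without molecular identifiers a read need not stand for a molecule of its own.

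Tagln (transgelin, an actin-binding protein), Cnn1 (calponin, which damps myosin activity) and Myl9 (the light chain through which phosphorylation starts contraction) did not pass the filter on low counts. Tagln had 0, 0 and 3 reads in Biotin+, against 0 in each of the 3 Biotin- libraries. Cnn1 had 0, 0 and 2 reads in Biotin+, against 3, 2 and 0 in Biotin-. Myl9 had 4, 0 and 1 reads in Biotin+, against 9, 5 and 2 in Biotin-. All 3 genes overlapped between the groups and no fold change is given for them. In total the 4 contractile genes had 6 to 10 reads per library in Biotin+ and 17 to 116 in Biotin-. The name of the set is thus met by its YAP-linked genes and not by Tagln, Cnn1 or Myl9. In the annotation 67.9% of the Tagln exon bases lie opposite Pcsk7 and Gm48529, and how such reads were counted is not given, so the Tagln counts are the least certain. Acta2, Cnn1, Myl9, Ccn1, Ankrd1, Amotl1 and Amotl2 shared no 75-base window with transcripts of other genes.

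Of the 10 genes, 7 passed the filter. A gene can pass through its Biotin- libraries alone, so this number supports nothing about the set. In edgeR's quasi-likelihood test over all 13360 genes, 5 of the 7 were below an adjusted p of 0.05, all lower in Biotin+, where 6.72% of all tested genes were called lower and 1.53% higher. A fit with replicate number as a block called 7 of 7, where 12.0% of all genes were called lower and 5.60% higher. All 7 had every Biotin+ library below every Biotin- library, as did 15.9% of all tested genes. Because the genes were chosen on this contrast, nothing is read from these counts. The share of all calls that were higher was 18.6%, and it was 0.655% when libraries were scaled to 15 CD8 T cell marker genes, which moved the median log2 ratio of all genes by -0.74. Under that scaling the 7 values ran from -2.23 for Yap1 to -4.11 for Acta2.

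Within each group the genes split by replicate number. Ccn1, Ankrd1 and Amotl2 were highest in replicate 3 of both groups, as were 16.7% of all tested genes. Ankrd1 stood 0.95 and 0.89 above its group mean in Biotin+ and Biotin- replicate 3 on the scale of log2(CPM + 0.5), Amotl2 1.20 and 0.87 above, and Ccn1 0.81 and 0.65 above. Acta2 was lowest in the same 2 libraries, 0.60 below its mean in Biotin+ and 1.18 below in Biotin-. Ccn2 was highest in replicate 3 in Biotin+, 0.88 above its mean, but in replicate 1 in Biotin-, 0.75 above. Its deviation in Biotin- replicate 3 was -0.07. Yap1 and Amotl1 were highest in replicate 1 in Biotin+ and in replicate 3 in Biotin-. They were lowest in replicate 2 of both groups, as were Ankrd1 and Amotl2, and the share of all genes lowest there was not counted. Relative to Yap1 reads, Ccn1 reads ran at 7.42, 13.9 and 20.5 in Biotin+ and at 14.9, 24.9 and 29.3 in Biotin- replicates 1 to 3. Acta2 alone of the 7 genes was at its lowest in replicate 3 of both groups. In Biotin+ that order rests on 5, 10 and 0 reads, near the floor. The share of all genes with this order was not counted.

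**Figure D2:**
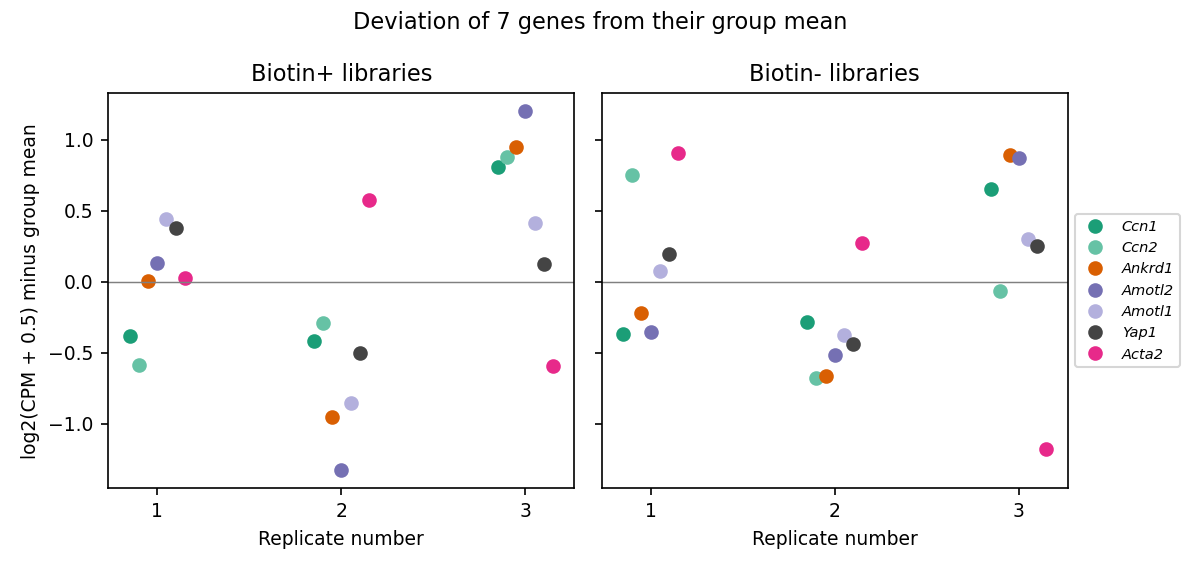
Deviation of log2(CPM + 0.5) from the group mean (y axis) for 7 genes by replicate number (x axis), Biotin+ on the left and Biotin- on the right. Ccn1, Ankrd1 and Amotl2 are highest in replicate 3 of both groups, where Acta2 is lowest.

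The summed levels of the CD8 T cell, fibroblast and mural marker lists also separated the groups. Those of the myeloid, endothelial and epithelial lists overlapped. The fibroblast sum was highest in replicate 1 within Biotin-, at 3749 CPM, and in replicate 3 within Biotin+, at 684 CPM. Ccn1, Ankrd1 and Amotl2 were highest in replicate 3 of both groups. So were Sparc, Col3a1, Dcn, Fbln2, Pdgfra and Pdgfrb of the fibroblast list, named after their values were seen. The other fibroblast markers were highest in Biotin- replicate 1 within that group. All 15 CD8 T cell markers were detected in both groups, and their summed level was 6982 to 9359 CPM in Biotin+ and 4001 to 5439 CPM in Biotin-. Of 15 fibroblast markers (collagens, Dcn, Pdgfra and others), 14 were detected in Biotin+ and 15 in Biotin-, with summed levels of 388 to 684 CPM in Biotin+ and 2055 to 3749 CPM in Biotin-. In Biotin- the list was led by Fn1, Sparc and Col3a1, at means of 795, 410 and 393 CPM, against 199, 79.7 and 64.4 in Biotin+. Pdgfra averaged 1.62 CPM in Biotin+, against 6.79 CPM in Biotin-. Lum averaged 0.727 CPM in Biotin+, against 1.42 CPM in Biotin-, with overlap. Fap was at 0 in all Biotin+ libraries and had 9, 6 and 0 reads in Biotin-. In edgeR's test 12 of 14 tested fibroblast markers were lower in Biotin+ at an adjusted p of 0.05, and 5 of 15 CD8 T cell markers were higher. With the replicate number as a block these counts were 13 of 14 lower and 13 of 15 higher. Over all tested genes 6.72% were lower and 1.53% higher, and with the block 12.0% and 5.60%. Mural cell markers, those of pericytes and vascular smooth muscle, summed to 24.5 to 35.5 CPM in Biotin+ (8 of 10 detected) and 58.1 to 102 CPM in Biotin- (9 of 10). Most of the mural difference was in 1 gene, Cspg4, singled out after its values were seen, at 14.5, 11.2 and 23.4 CPM in Biotin+, against 81.5, 46.5 and 80.5 CPM in Biotin-. It was the 1 called, lower, of 4 mural markers tested, with and without the block. Higd1b was at 0 in every library, and Des was at 0 in Biotin+ with 8 to 10 reads in Biotin-. Endothelial markers summed to 12.1 to 20.9 CPM in Biotin+ (7 of 10 detected, Tek, Tie1 and Emcn at 0) and 19.7 to 30.5 CPM in Biotin- (10 of 10). Myeloid markers summed to 291 to 795 CPM in Biotin+ and 653 to 2449 CPM in Biotin- (10 of 10 detected in both), with overlap between the groups. Of the 10, 0 were called in edgeR's test and 4 were lower with the block. Of 3 endothelial markers tested 0 were called, and 1 was lower with the block (Pecam1, edgeR adjusted p = 0.0287). Epithelial and tumour markers summed to 23.4 to 135 CPM in Biotin+ (4 of 10 detected) and 14.1 to 56.8 CPM in Biotin- (6 of 10), with Krt7, Cldn3 and Cdx2 at 0 in every library, Krt8, Krt19 and Cldn4 at 0 in Biotin+ and Cldn7 at 0 in Biotin-. Of 2 tested 0 were called, and 1 was higher with the block (Cdh1, edgeR adjusted p = 0.0361). The part of these marker lists in the result was not tested. Whether the epithelial and tumour list marks the MC38-hPD-L1 cells, and whether those cells express the fibroblast markers, was not tested either. In libraries of sorted bulk cells, fewer cells of a type and less RNA per cell cannot be told apart.

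**Figure D3:**
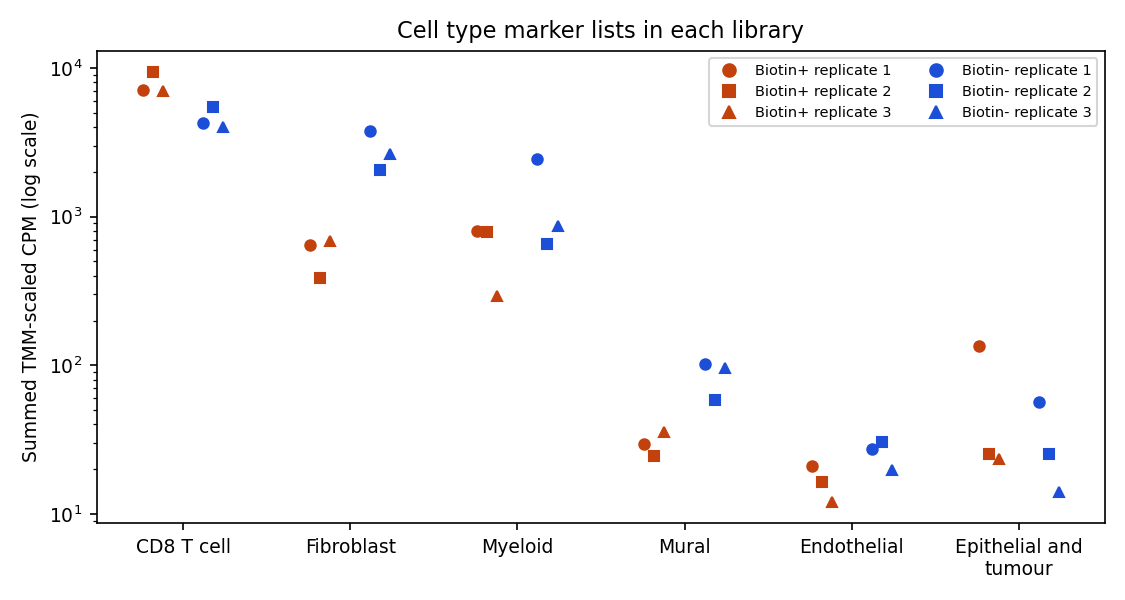
Summed TMM-scaled CPM (y axis, log scale) of 6 cell type marker lists (x axis) in each library, Biotin+ left of Biotin-. Fibroblast markers reach at most 684 CPM in Biotin+ and at least 2055 CPM in Biotin-, while CD8 T cell markers reach at least 6982 CPM in Biotin+ and at most 5439 CPM in Biotin-.

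Set against the fibroblast marker reads of the same library, the ranges of the YAP target genes overlapped between the groups. With 3 libraries per group and a wide spread, overlap does not show equal levels. Ccn1 ran from 103 to 298 within Biotin- alone. Fn1 gave 28435 of the 77144 marker reads in Biotin- replicate 1 and 9086 of 49033 in Biotin- replicate 3. Ccn1 had 194 ± 70.2 reads per 1000 fibroblast marker reads in Biotin+, against 201 ± 97.4 in Biotin- (SD, n = 3 each). Amotl2 had 23.2 ± 14.5 in Biotin+, against 24.3 ± 14.7 in Biotin-, and Ankrd1 8.52 ± 4.19 in Biotin+, against 10.2 ± 6.36 in Biotin- (SD, n = 3 each). These 3 genes overlapped between the groups and differed by less than the spread between replicates. Amotl1 had 6.50 ± 1.76 in Biotin+, against 9.16 ± 2.29 in Biotin- (SD, n = 3 each), with ranges that overlapped. Ccn2 had 1.003 ± 0.863 in Biotin+, against 1.90 ± 0.462 in Biotin- (SD, n = 3 each), also with overlap, and so did Acta2, at 0.676 ± 0.834 in Biotin+, with 1.05 ± 0.648 in Biotin- (SD, n = 3 each). Yap1 was the exception, at 16.5, 14.2 and 12.8 reads per 1000 fibroblast marker reads in Biotin+, against 6.94, 8.05 and 10.2 in Biotin-. The Yap1 groups did not overlap on this scale, with Biotin+ above Biotin-, as were 84.0% of all tested genes. The ratio describes how reads of 2 kinds moved together and does not say which cells they came from.

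**Figure D4:**
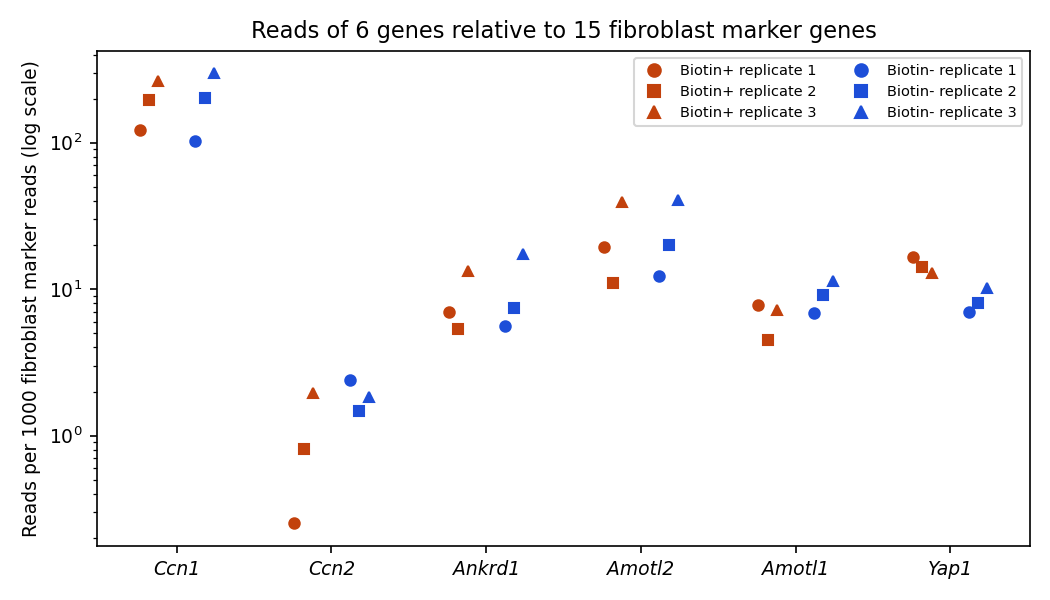
Reads of 6 genes per 1000 reads of 15 fibroblast marker genes (y axis, log scale), Biotin+ left of Biotin-. Ccn1, Ccn2, Ankrd1, Amotl2 and Amotl1 overlap between the groups, and Yap1 lies between 12.8 and 16.5 in Biotin+ and between 6.94 and 10.2 in Biotin-.

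Among the family relatives of the set, TAZ, a calponin, a CCN gene and an enteric actin were lower in Biotin+. Of 20 paralogues 15 could be tested: 4 were lower, 11 missed the threshold and 0 were higher. Of all tested genes 6.72% were lower and 1.53% higher. The median log2 ratio of the paralogues was 0.01, where all genes had a median of 0.06. The mean had the other sign, -0.94 with Actg2 at the bound given below, which left the median as it was. Wwtr1, which encodes TAZ, fell to 7.68 ± 3.64 CPM in Biotin+, against 40.4 ± 10.4 CPM in Biotin- (SD, n = 3 each, log2 ratio -2.39 ± 0.36 SE, edgeR adjusted p = 0.00657). Cnn3, the non-muscle acidic calponin, fell to 12.6 ± 4.65 CPM in Biotin+, against 63.9 ± 16.3 CPM in Biotin- (SD, n = 3 each, log2 ratio -2.34 ± 0.32 SE, edgeR adjusted p = 0.00603). Ccn3, another CCN gene, averaged 0.0986 CPM in Biotin+, against 1.96 CPM in Biotin- (edgeR adjusted p = 0.0269). Actg2, the enteric smooth muscle actin, had no read in Biotin+ and 26, 12 and 10 reads in Biotin-, so it was at least 14.0-fold lower in Biotin+ against a floor of 3 reads over the group (edgeR adjusted p = 0.0262). Amot, the founding angiomotin, came out at a log2 ratio of -2.02 ± 0.63 (SE) and missed the threshold (edgeR adjusted p = 0.0799; 0.00902 with the block). The Ccn3 call was lost without Biotin+ replicate 1 or 2 or Biotin- replicate 2 or 3, and that of Actg2 without any of these or Biotin- replicate 1.

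The abundant cytoskeletal relatives, which leukocytes also use, were not called. Actg1 and Actb, the cytoplasmic actins, came out at log2 ratios of 0.39 ± 0.27 and 0.26 ± 0.22 (SE) and missed the threshold (edgeR adjusted p = 0.446 and 0.522). Per kb, Actg1 stood at 1147 ± 341 CPM in Biotin+, against 878 ± 173 CPM in Biotin- (SD, n = 3 each), while Acta2 stood at 0.136 CPM in Biotin+ with 1.36 CPM in Biotin-. No paralogue was called higher, while 3 were at an unadjusted p under 0.05, 2 were called by DESeq2 and 0 by limma-voom. The blocked fit, which called 5.60% of all tested genes higher, called 3. Those 3 were Cnn2 (edgeR adjusted p = 0.0402 with the block), Myl12b (0.0440) and Myl6 (0.0158), chosen for naming after their values were seen, which encode a calponin and myosin light chains of non-muscle cells. Under the CD8 T cell marker scaling all 15 tested paralogues had negative log2 ratios, so the positive signs depend on the scaling. The median of all genes under it was -0.68.

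Among 28 other genes of the smooth muscle apparatus and of SRF control, 2 tropomyosins, caldesmon, smoothelin, an actinin and the myosin light chain kinase were lower in Biotin+. Of the 18 that could be tested, 6 were lower, 12 missed the threshold and 0 were higher (median log2 ratio -0.70). The shares over all tested genes were 6.72% lower and 1.53% higher. Under the CD8 T cell marker scaling 14 of the 18 were lower, as were 3489 of all 13360 tested genes. Tpm2 and Tpm1, tropomyosins that line actin filaments, came out at log2 ratios of -2.11 ± 0.34 and -1.26 ± 0.23 (SE, edgeR adjusted p = 0.00792 and 0.0107). Cald1, caldesmon, was 17.5 ± 12.2 CPM in Biotin+, against 85.4 ± 14.0 CPM in Biotin- (SD, n = 3 each, log2 ratio -2.29 ± 0.43 SE, edgeR adjusted p = 0.0116). Smtn (smoothelin) and Actn1 (an actin crosslinker) came out at log2 ratios of -1.54 ± 0.30 and -0.95 ± 0.19 (SE, edgeR adjusted p = 0.0139 and 0.0147). The sixth was Mylk, the myosin light chain kinase (-1.93 ± 0.43 SE, edgeR adjusted p = 0.0227), named after its values were seen. The 10 genes not tested, Myh11, Des, Lmod1 and Myocd among them, had at most 35 reads in any library, and Myh11, the smooth muscle myosin heavy chain, had 5, 4 and 0 reads in Biotin+ and 2, 0 and 0 in Biotin-.

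The 2 most abundant genes of that list had opposite signs, and neither was called. Flna, the actin crosslinker filamin A, came out at a log2 ratio of -0.59 ± 0.22 (SE, edgeR adjusted p = 0.144; 0.0262 with the block). Zyx, the focal adhesion protein zyxin, was 597 ± 91.0 CPM in Biotin+, against 356 ± 42.3 CPM in Biotin- (SD, n = 3 each, log2 ratio 0.75 ± 0.21 SE) and missed the threshold (edgeR adjusted p = 0.0544; 0.00656 with the block). In the blocked fit 9 of the 18 were lower and 1 was higher, where 12.0% of all tested genes were lower and 5.60% higher. At an unadjusted p under 0.05 the numbers for this list were 10 and 1. DESeq2 and limma-voom each called 1 higher. Without Biotin- replicate 3 the number called lower was 2, with Tpm1, Smtn and Actn1 among the calls lost. Smtn was also lost without Biotin+ replicate 2 and Actn1 without Biotin- replicate 1.

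In the Hippo pathway itself, Tead1, Tead2, Wwc1, Wwc2 and Ajuba were lower in Biotin+, and no kinase was called. Of 22 genes tested, 5 were lower, 17 missed the threshold and 0 were higher (median log2 ratio -0.42). Beside this, 6.72% of all tested genes were lower and 1.53% higher. Tead2 and Tead1 encode TEAD factors that bring YAP to DNA, Wwc1 (KIBRA) and its relative Wwc2, scaffolds that activate LATS, and Ajuba a LIM protein that binds LATS. The other TEAD genes, Tead4 and Tead3, missed the threshold (edgeR adjusted p = 0.0658 and 0.266; 0.00404 and 0.164 with the block). Tead2 was 6.50 ± 3.50 CPM in Biotin+, against 28.5 ± 12.2 CPM in Biotin- (SD, n = 3 each, log2 ratio -2.13 ± 0.43 SE, edgeR adjusted p = 0.0154), and Tead1 came out at a log2 ratio of -2.08 ± 0.47 (SE, edgeR adjusted p = 0.0243). Ajuba, Wwc1 and Wwc2 came out at log2 ratios of -1.83 ± 0.31, -1.92 ± 0.40 and -2.04 ± 0.47 (SE, edgeR adjusted p = 0.00837, 0.0180 and 0.0251). Vgll4, a TEAD cofactor that competes with YAP, and Mob1a, an activator of LATS, were the most abundant of the list and missed the threshold, with log2 ratios of 0.38 ± 0.22 and 0.24 ± 0.23 (SE, edgeR adjusted p = 0.345 and 0.581). The kinases Stk4, Stk3 (MST1 and MST2) and Lats1, named after their values were seen, had log2 ratios of -0.11 ± 0.27, -0.76 ± 0.36 and -0.20 ± 0.26 (SE, edgeR adjusted p = 0.853, 0.238 and 0.712). At an unadjusted p under 0.05, 8 were lower and 1 was higher. DESeq2 and limma-voom each called 6 lower and 0 higher, and the blocked fit 6 lower and 1 higher. Over all tested genes the blocked fit called 12.0% lower and 5.60% higher, DESeq2 called 1389 genes lower and limma-voom 944. Under the CD8 T cell marker scaling 12 were lower and all 22 had negative log2 ratios. That scaling called 3489 of all 13360 tested genes lower, with a median log2 ratio of -0.68 over all genes. The number called lower was 1 without Biotin- replicate 3 (Ajuba), 3 without Biotin- replicate 1 and 2 without Biotin+ replicate 2. Wwc2 was also lost without Biotin+ replicate 1.

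Further known targets of YAP and TAZ, 18 in number, included 14 that could be tested. Of these, 6 were lower, 8 missed the threshold and 0 were higher (median log2 ratio -0.86), where 6.72% of all tested genes were lower and 1.53% higher. Axl, a receptor tyrosine kinase, was 99.0 ± 17.5 CPM in Biotin+, against 410 ± 107 CPM in Biotin- (SD, n = 3 each, log2 ratio -2.05 ± 0.25 SE, edgeR adjusted p = 0.00554). Arhgef17 and Myof, the membrane repair protein myoferlin, came out at log2 ratios of -2.47 ± 0.42 and -2.25 ± 0.38 (SE, edgeR adjusted p = 0.00837 and 0.00855). Gadd45a, a growth arrest and stress gene, and Ccdc80, a matrix protein, came out at log2 ratios of -1.29 ± 0.27 and -2.04 ± 0.43 (SE, edgeR adjusted p = 0.0182 and 0.0189). The sixth, named after its values were seen, was Ptpn14, a phosphatase that retains YAP in the cytoplasm (-2.39 ± 0.53 SE, edgeR adjusted p = 0.0237). Nt5e, the ectonucleotidase CD73, came out at a log2 ratio of 0.43 ± 0.25 (SE) and missed the threshold (edgeR adjusted p = 0.358). No gene was higher at an unadjusted p under 0.05, by DESeq2, by limma-voom or in the blocked fit. The blocked fit called 7 lower, where 12.0% of all tested genes were lower. Without Biotin+ replicate 2 or without Biotin- replicate 3 the number called lower was 3, with Gadd45a and Ccdc80 among the calls lost. Both were also lost without Biotin- replicate 1. As with the set, the fibroblast markers were lower beside all 4 lists, by a median log2 ratio of -2.37 over 14 tested, and their part in these calls was not tested.

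**Figure D5:**
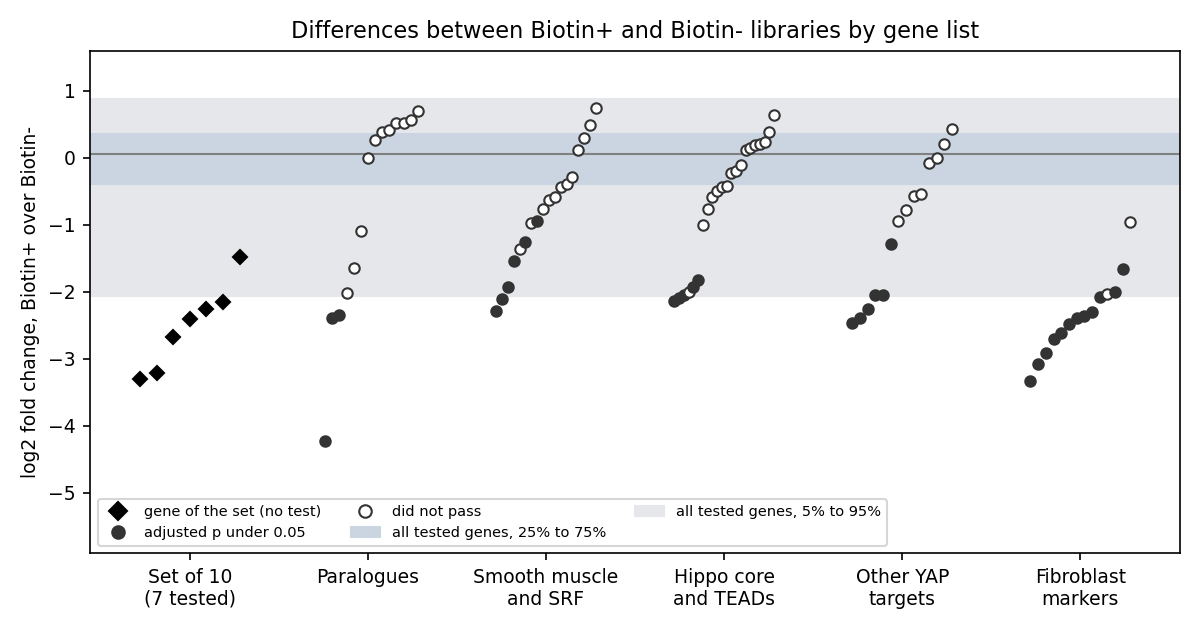
Log2 fold change of Biotin+ over Biotin- (y axis) for the tested genes of the set, of 4 related lists and of the fibroblast markers (x axis), with bands for all tested genes. The set spans -3.30 to -1.48, each list holds called genes near -2 beside genes near 0, and Actg2, which had no read in Biotin+, is not drawn.

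The genes whose profile over the 6 libraries came nearest to the mean of the 7 tested genes were Parva, Ccnd1, Fblim1, Mmp2 and Mrc2, out of 12382 genes with a mean of at least 1 CPM. Nearness was the root mean square difference of centred log2(CPM + 0.5) values, and it ran from 0.08 for Parva to 0.12 for Mrc2, while the 7 genes themselves lay 0.31 (Amotl1) to 0.97 (Acta2) from their own mean. Parva encodes a focal adhesion adaptor, Ccnd1 the cell cycle regulator cyclin D1, Fblim1 a filamin-binding adhesion protein, Mmp2 a gelatinase and Mrc2 a collagen receptor. Ccnd1 averaged 24.3 ± 8.91 CPM in Biotin+, against 105 ± 30.3 CPM in Biotin- (SD, n = 3 each), and Mmp2 54.1 ± 17.6 CPM in Biotin+, against 276 ± 67.1 CPM in Biotin- (SD, n = 3 each). They were picked for their likeness, so these values are a description.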

How the data were processed

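Poly-A RNA of 3 Biotin+ and 3 Biotin- samples was sequenced, and the authors deposited a table of raw counts, with gene symbols as rows and the 6 samples as columns. The submitters' processing notes name the build GRCm39 and, with no roles, featureCounts 2.0.1, Picard 1.14, STAR 2.7.10a and Trim Galore 0.6.7. Not given in the sources used here are which annotation and strand setting were used and how reads matching more than 1 gene were counted. Totals were 16440614 to 19640693 counts in Biotin+ and 16423106 to 19035864 in Biotin-, and 18545 genes had no count.

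The counts were tested with edgeR 4.0.16 in R 4.3.3 (filterByExpr with a minimum count of 10, TMM, robust quasi-likelihood F test, group as the only term), with Benjamini-Hochberg adjustment over 13360 genes and a threshold of 0.05. SE is the log2 fold change over the root of F, and SD is over 3 libraries. The code was tested on simulated data. Alternatives were 4 other scalings, 2 other filters, DESeq2 1.42.0, limma-voom (limma 3.58.1), the replicate number as a block and each library left out.

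Samples with the same number deviated together from their group means (correlation across genes 0.424, 0.272 and 0.430, against -0.304 to -0.107 between different numbers). Centring within each group pushes the second range below 0 when the first is positive, so it adds no separate support. The numbers, which come from the titles, were therefore taken to pair the samples, and blocked values or counts stand where they change a call. No 2 libraries of a group were alike within counting error: chi-square over degrees of freedom lay between 35.6 and 103.

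The members, the gene lists and the tests were chosen with earlier results of these data known. Named were the set, in each list 5 genes by smallest p and 2 by highest mean CPM, 5 genes of like profile, and markers at 0. Exon lengths, overlaps and shared windows came from GENCODE M21 (GRCm38) and promoters from RefSeq, another build than that of the counts.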

Additional observations from a re-analysis of the deposited data

How the results depend on the processing

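All 104 log2 fold changes that the refits gave for the 7 tested genes of the set were negative, between -4.54 and -1.29. Acta2 had no value under the filter on CPM, which it did not pass. Of these values 5 had moved by more than the spread between replicates. They were Ccn1 (-2.997), Amotl1 (-3.40) and Yap1 (-2.23) under CD8 T cell marker scaling, Acta2 (-4.37) without Biotin+ replicate 2 and Ccn2 (-4.54) without Biotin+ replicate 3. The median of the 7 was -2.40, and -2.87 to -1.85 with 1 library left out.

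Over all genes, 205 higher and 898 lower calls became 84 higher with library size alone, 23 higher and 3489 lower under CD8 T cell marker scaling, 396 and 1495 with no filter, 471 and 1389 by DESeq2, and 748 and 1599 with the replicate block. With 1 library left out they ran from 23 to 200 higher and from 239 to 1044 lower. Library size alone moved the median of all genes by -0.20.

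Among the lists, CD8 T cell marker scaling gave 7 lower paralogues (4 in the test as reported), 14 lower smooth muscle genes (6) and 12 lower Hippo genes (5). Higher calls, 0 in each list as reported, became 2 paralogues and 1 smooth muscle gene by DESeq2, 1 smooth muscle gene by limma-voom, and 3 paralogues, 1 smooth muscle gene and 1 Hippo gene with the replicate block. With 1 library left out the lower calls ran from 2 to 5 for paralogues, 2 to 7 for smooth muscle genes, 1 to 6 for Hippo genes and 3 to 6 for YAP targets. Among the 20 genes named for their small p, the replicate block lost no call. The causes were not tested. Tagln, Cnn1 and Myl9 had too few reads to compare.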
